A study of Mus musculus with 32 samples.

Results

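Osteoclasts are large multinucleated cells that dissolve bone mineral and digest bone collagen. They form when precursors of the monocyte and macrophage lineage receive M-CSF and RANKL, switch on the transcription factor NFATc1 and fuse with each other. Osteoblasts and stromal cells are the usual source of both signals, which couples the building of bone to its removal. A mature osteoclast attaches to bone through the αvβ3 integrin, acidifies the space beneath it with a vacuolar proton pump and secretes proteases into it.

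The 9 genes described here stand for these steps and were taken by symbol from the 31053 genes of the deposited count matrices, in which 9 of 9 were found. They were measured in BMSC-OBs, which are adherent stromal cells of the marrow driven toward osteoblasts in culture. The donors were Diversity Outbred (DO) mice, a population descended from several inbred founder strains. The labels hold 1 group only, with no genotype, age or treatment that differs between samples: cells of 77 mice were combined after culture into 16 pools of 4 or 5 mice each. Every culture was grown to confluence and then kept in medium with ascorbic acid, β-glycerophosphate and dexamethasone, and the study's methods list neither M-CSF nor RANKL as an additive. Each pool was a single droplet-based scRNA-seq library sequenced in 2 runs, in which a unique molecular identifier (UMI) marks each captured transcript. A pool, not a mouse and not a cell, was the replicate.

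Total depth per pool was 53990642 to 100777353 UMIs in run HGYVNCCX2, the run used here, over 3460 to 9429 barcodes. Of its 107853 barcodes, 105910 (98.2%) were also present in the other run of the same pool, so both runs read the same droplets, and 3061 (2.84%) were also present in another pool. After the limits on cell quality and removal of called doublets, 83906 cells remained.

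The genes fall into 4 roles. *Oscar* encodes a collagen-binding receptor that costimulates osteoclast formation through the adaptor FcRγ, and *Nfatc1* encodes the transcription factor that drives most osteoclast genes. *Dcstamp* and *Ocstamp* encode membrane proteins needed for precursors to fuse. *Itgb3* encodes the β3 chain of the integrin that seals the cell to bone, and *Calcr* encodes the receptor for calcitonin, a hormone that halts resorption. *Acp5* encodes tartrate-resistant acid phosphatase, the classical stain for osteoclasts, *Ctsk* encodes cathepsin K, which cuts type I collagen, and *Atp6v0d2* encodes a subunit of the vacuolar proton pump that is also used in cell fusion. All 9 are protein-coding genes of GRCm38 (GENCODE M21). *Acp5* lies at chr9:22126727-22135711, *Ctsk* at chr3:95499256-95509362 and *Dcstamp* at chr15:39745930-39760938. *Ocstamp* lies at chr2:165393760-165400405, *Atp6v0d2* at chr4:19876841-19922605 and *Oscar* at chr7:3609813-3616157. *Calcr* lies at chr6:3685680-3764714 and *Itgb3* at chr11:104608000-104670476.

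The sequence just before 3 start sites is shown as a description. Any match, on either strand, to the NFAT core (GGAAA) or to an E-box (CATGTG) is in capitals. The sequences are 150 bases long, read 5′ to 3′ toward the gene and taken from RefSeq on GRCm38.p6. From it 7 start sites of 4 of the 9 genes were read, none of them of the fusion genes *Dcstamp* and *Ocstamp*.
*Oscar*, chr7:3616158-3616307, minus strand: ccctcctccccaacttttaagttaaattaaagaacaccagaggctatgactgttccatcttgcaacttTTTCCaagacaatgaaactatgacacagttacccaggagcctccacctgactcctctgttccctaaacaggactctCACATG
*Acp5*, chr9:22131866-22132015, minus strand: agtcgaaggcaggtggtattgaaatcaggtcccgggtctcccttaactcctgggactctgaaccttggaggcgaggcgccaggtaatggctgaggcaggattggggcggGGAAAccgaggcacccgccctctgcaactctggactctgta
*Ctsk*, chr3:95499060-95499209, plus strand: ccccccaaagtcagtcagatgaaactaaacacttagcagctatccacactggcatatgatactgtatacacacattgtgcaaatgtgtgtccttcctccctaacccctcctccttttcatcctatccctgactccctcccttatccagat
The *Oscar* window holds an NFAT core 82 bases before the start and an E-box 6 bases before it, the *Acp5* window holds an NFAT core 41 bases before the start, and the *Ctsk* window holds neither. Of the 4 windows not shown, that of the outermost *Acp5* start, chr9:22135747-22135896, holds neither motif, and that of the innermost, chr9:22130599-22130748, holds NFAT cores 117 and 37 bases before the start and the E-box 90 bases before it. Of the 2 *Calcr* windows 1 holds an NFAT core, 65 bases before the start. None of the 7 windows held the AP-1 motif TGANTCA or the E-box CACGTG on either strand. Among 32851 promoter windows of the same length, 37.6% held an NFAT core, 7.15% the E-box CATGTG, 4.24% the AP-1 motif and 4.30% the E-box CACGTG.

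Myeloid cells were read as cells with at least 2 UMIs of *Tyrobp*, an adaptor of immune receptors, and are called *Tyrobp*-gated cells. There were 15276 of them, between 291 and 2169 per pool (median 788.5), or 18.6% ± 8.56 of a pool's cells (SD, n = 16). Mesenchymal cells were read as cells without *Tyrobp* or *Ptprc* and with at least 30 UMIs of *Col1a2* and *Col3a1* per 10000, and there were 42076 of these collagen-gated cells. All 9 of 9 myeloid markers were detected in the *Tyrobp* gate of every pool, summing to 95.04 to 189.6 UMIs per 10000, against 0.409 to 5.28 in the collagen gate. The *Tyrobp* gate is a mixture: 8 granulocyte markers summed to between 4.27 and 659.7 UMIs per 10000 in it, and 3.65% to 62.5% of its cells also carried at least 30 collagen UMIs per 10000. Pool 13 had the highest such share (62.5%) and stood apart from the others, whose median together with it was 10.5%. A fall in a gene over a gate cannot be told apart here from fewer cells of a type within the gate.

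In *Tyrobp*-gated cells *Acp5*, *Ctsk* and *Atp6v0d2* were readily read, and the fusion and receptor genes were rare. *Acp5* had between 1.94 and 10.2 UMIs per 10000 over the 16 pools with a median of 3.65, and was seen in 49.8% ± 9.46 of cells (SD, n = 16). *Ctsk* had between 1.26 and 16.04 with a median of 4.84, and *Atp6v0d2* between 0.649 and 3.19 with a median of 1.37. Pool 1 was highest for all 3 and pools 17 and 18 were lowest, with the other pools spread between them. *Dcstamp* ranged from 0.00683 to 0.288 UMIs per 10000 (median 0.0426) and *Ocstamp* from 0.00361 to 0.101 (median 0.0266), in 1.99% and 1.18% of cells on average. *Oscar* was at 0 in 4 pools and reached 0.0928, and *Calcr* was at 0 in 4 pools and reached 0.159. Pools 11, 17 and 18 were at 0 for both receptors. *Nfatc1* varied least, from 0.272 to 0.801 UMIs per 10000 (median 0.432), and *Itgb3* ranged from 0.0344 to 0.208 (median 0.0653). Pool 1 was highest for every member but *Ocstamp*, for which pool 9 was highest.

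**Figure D1:**
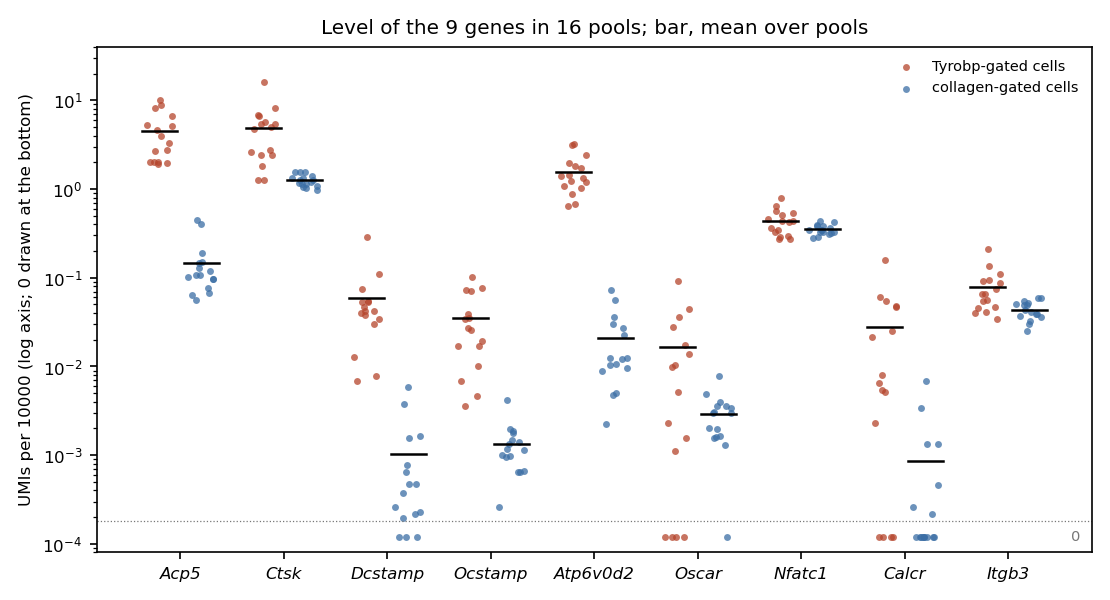
Level of each of the 9 genes (UMIs per 10000, log axis, 0 drawn at the bottom) in *Tyrobp*-gated cells (red) and collagen-gated cells (blue) of the 16 pools. Each point is a pool and each bar the mean over pools. The groups are apart for *Acp5*, *Dcstamp* and *Atp6v0d2* and overlap for *Nfatc1*, *Itgb3*, *Ocstamp*, *Oscar* and *Calcr*, while *Ctsk* is also plentiful in the collagen gate.

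Set against the mesenchymal cells of the same pools, 5 of the 6 members that could be tested were higher in *Tyrobp*-gated cells, and *Nfatc1* did not pass the test. The background was high, since 84.4% of 12982 genes passed the same test, 40.4% higher and 44% lower in *Tyrobp*-gated cells, so the number of members called says little about them. *Atp6v0d2* was 1.57 ± 0.772 UMIs per 10000 in *Tyrobp*-gated and 0.0208 ± 0.0198 in collagen-gated cells (SD, n = 16 pools), a log2 fold change of 6.38 ± 0.30 (SE, adjusted p = 9.72e-14, edgeR). *Acp5* differed by 4.82 ± 0.17 on the log2 scale (adjusted p = 1.40e-15, edgeR). *Dcstamp* had 856 UMIs in *Tyrobp*-gated and 48 in collagen-gated cells. It passed the filter on low counts through the *Tyrobp* gate alone. Its values and its place among the 5 members called are therefore a description. For these 3 genes the lowest *Tyrobp*-gated pool was above the highest collagen-gated pool. How many of all genes tested were apart in this way was not counted, so the gap is a description. *Ocstamp*, *Oscar* and *Calcr* did not pass the filter on low counts. *Ocstamp* was nonetheless above the highest collagen-gated pool in 15 of 16 pools, and *Oscar* and *Calcr* each in 8 of 16.

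Cathepsin K was the resorption gene that mesenchymal cells also carried. *Ctsk* was read in 60.5% ± 10.3 of collagen-gated cells at 1.25 ± 0.189 UMIs per 10000, with a narrow range over pools of 0.968 to 1.57. In *Tyrobp*-gated cells it was 4.90 ± 3.66, higher in 16 of 16 pools, with a log2 fold change of 1.52 ± 0.23 (SE, adjusted p = 3.77e-06, edgeR). The collagen-gated level was a median of 30.4% of the *Tyrobp*-gated level, and from 9.76% in the pool where they were furthest apart to 94.2% where they were closest. For comparison, the same ratio was 3.39% for *Acp5*, 0.889% for *Atp6v0d2* and 1.03% for *Dcstamp*, and the myeloid markers had medians between 0.611% and 1.82%. Cells of both gates thinned to 2000 UMIs carried *Ctsk* at nearly the same share, 21.8% of 13708 *Tyrobp*-gated and 20.6% of 33253 collagen-gated cells. Its level in the thinned cells was still called higher in the *Tyrobp* gate (log2 1.38, adjusted p = 7.5e-06, edgeR). *Acp5* kept its gap at that depth, with 33.9% and 3.30%, as did *Atp6v0d2*, with 18.2% and 0.592%. Thinning left out 1568 *Tyrobp*-gated and 8823 collagen-gated cells as too shallow.

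*Nfatc1* was not set apart by the myeloid gate, and *Itgb3* was called higher in it by a call that did not hold in thinned cells. *Nfatc1* was 0.437 ± 0.148 UMIs per 10000 in *Tyrobp*-gated and 0.352 ± 0.0450 in collagen-gated cells, higher in 11 of 16 pools (log2 0.12 ± 0.12, SE, adjusted p = 0.319, edgeR). The difference had an adjusted p of 0.0413 (edgeR, log2 0.26) when scaled to total UMIs alone, and turned to -0.06 when cells were thinned. *Itgb3* was 0.0783 ± 0.0447 against 0.0437 ± 0.0102, higher in 13 of 16 pools (log2 0.61 ± 0.22, SE, adjusted p = 0.0128, edgeR), and the call ended in thinned cells (log2 -0.12, adjusted p = 0.672, edgeR). At 2000 UMIs per cell *Nfatc1* was seen in 6.73% of *Tyrobp*-gated and 6.91% of collagen-gated cells, and *Itgb3* in 0.963% and 1.09%. The median pool had 5078.5 UMIs per *Tyrobp*-gated cell and 15620.8 per collagen-gated cell. Collagen-gated cells of pools 1, 13 and 18 were far shallower, with medians of 1643, 2444 and 3141 UMIs.

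T cells served as a type that should lack osteoclast genes. The gate of at least 2 UMIs of *Cd3d*, *Cd3e*, *Cd3g* and *Trbc2* and no *Tyrobp* held 559 cells with a median of 5403 UMIs. *Acp5* was seen in 16.1% of them and *Atp6v0d2* in 1.43%, under the lowest pool of the *Tyrobp* gate for both genes (34.7% and 9.96%). *Ctsk* was seen in 26.3%, against 30.02% ± 14.3 (SD, n = 16) in the *Tyrobp* gate, whose lowest pool had 10.8%. In cells thinned to 2000 UMIs the *Ctsk* share was 9.77% of T-gated cells (95% exact binomial interval 7.27% to 12.8%) against 21.8% of *Tyrobp*-gated cells, and its level over all T-gated cells was 0.789 UMIs per 10000. In the 439 T-gated cells that also had fewer than 30 collagen UMIs per 10000, the *Ctsk* share was 15.5%, or 6.13% of those deep enough to be thinned. *Dcstamp* was seen in 2 cells (0.358%, 95% exact binomial interval 0.0434% to 1.29%), which lies within the range over pools of the *Tyrobp* gate (0.127% to 6.44%). *Ocstamp*, *Oscar* and *Calcr* had 0 of 559 cells, which allows a share of up to 0.537%, or 0.658% by the upper end of the two-sided exact binomial interval. The mean shares of *Oscar* (0.450%) and *Calcr* (0.658%) over all *Tyrobp*-gated cells were near these limits. *Nfatc1* (33.6%) and *Itgb3* (13.2%) were seen more often in the T-cell gate than in the *Tyrobp* gate, where the mean shares were 17.6% and 2.69%. The T-cell gate was not read as a background for *Nfatc1* and *Itgb3*. Of the 559 cells, 392 came from pools 14, 6 and 8, whereas pool 1 gave 3 and pool 13 gave 0. Shares and limits cover counting error only.

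Cells that carried both *Acp5* and *Ctsk*, at 2 or more UMIs each, made up a small and uneven fraction of the *Tyrobp* gate. There were 1483 such cells of 15276 (9.71%). The share was lowest in pool 18 (3.00%), had a median of 6.84% and was highest in pool 1 (25.7%, 95% exact binomial interval 23.5% to 28.1%). Pools 2 (15.3%), 5 (15.1%), 6 (11.3%) and 13 (10.1%) followed. A gate on UMI number follows depth, and the median *Tyrobp*-gated cell of pool 1 had 7108 UMIs, against 3292 in pool 4. In cells thinned to 2000 UMIs, both genes were seen together in 24.4% of the cells of pool 1 and 15.3% of those of pool 13, and the lowest share was 2.75% in pool 17. In pool 13, 62.5% of the *Tyrobp*-gated cells also carried collagen UMIs, and since collagen-gated cells carry *Ctsk* too, the part of such cells in its share was not tested. The intervals cover counting error within 1 library, and each pool is 1 library.

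**Figure D2:**
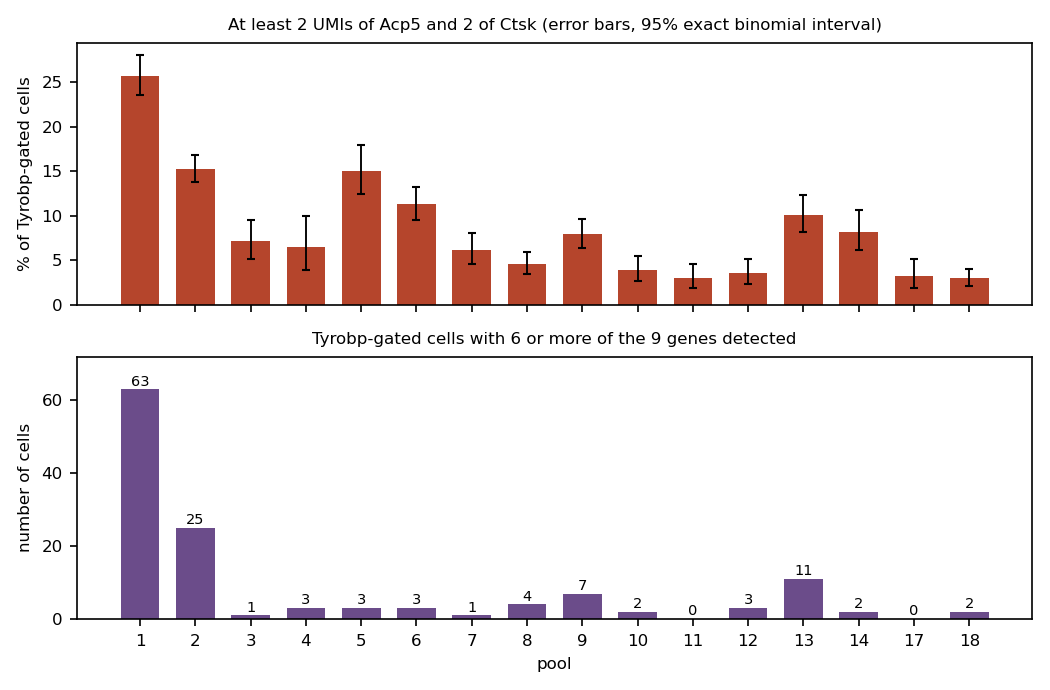
Share of *Tyrobp*-gated cells with at least 2 UMIs each of *Acp5* and *Ctsk* (upper panel, percent, error bars 95% exact binomial intervals) and number of *Tyrobp*-gated cells with 6 or more of the 9 genes detected (lower panel), by pool. Pool 1 is highest in both panels, with 25.7% and 63 cells, and pools 11 and 17 have 0 cells in the lower panel.

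Within the myeloid gate, *Nfatc1* and the proton pump subunit *Atp6v0d2* rose in the *Acp5*/*Ctsk*-positive cells, and the fusion genes and *Itgb3* had higher values there. Counts were summed over 1448 such cells and 13044 other *Tyrobp*-gated cells in the 14 pools with at least 20 cells of each. In this comparison 8.55% of 10601 genes passed the test, 3.88% higher and 4.67% lower, and 5 of the 5 members tested were higher. *Dcstamp*, *Ocstamp* and *Itgb3* were near 0 in the other cells and passed the filter on low counts through the positive cells, so that this count and the fitted values of these 3 genes are a description. *Acp5* (17.3 and 2.28 UMIs per 10000) and *Ctsk* (21.2 and 2.28) chose the cells and are given as a description.

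*Dcstamp* was between 0.0347 and 0.878 UMIs per 10000 (median 0.193) in the positive cells and between 0 and 0.0442 (median 0.0193) in the others. In 9 of 14 pools the positive cells were above the highest value of the others, and the fitted log2 difference was 3.35 ± 0.47 (SE), on 641 UMIs in the positive and 199 in the other cells. *Ocstamp* ranged from 0 to 0.546 (median 0.0849) in the positive cells and from 0 to 0.0376 (median 0.00934) in the others, higher in 12 of 14 pools (fitted log2 difference 3.22 ± 0.46, SE), on 245 and 134 UMIs. Pools 11 and 18 held no *Ocstamp* in their positive cells. *Ocstamp* had too few counts for a test in the other run, with at least 5 UMIs of *Tyrobp* and without pool 5 or pool 9.

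*Nfatc1* rose in every pool. It was between 0.399 and 2.28 UMIs per 10000 (median 0.960) in the positive cells and between 0.246 and 0.414 (median 0.312) in the others. The positive cells of 14 of 14 pools were higher and those of 13 were above the highest value of the others (log2 1.66 ± 0.18, SE, adjusted p = 5.20e-06, edgeR). *Itgb3* was between 0.0532 and 0.834 (median 0.195) against 0.0177 to 0.0966 (median 0.0285), higher in 12 of 14 pools (fitted log2 difference 2.91 ± 0.38, SE), on 573 and 305 UMIs. *Atp6v0d2* was between 0.723 and 5.87 (median 4.05) against 0.367 to 2.94 (median 1.12), higher in 13 of 14 pools (log2 1.45 ± 0.22, SE, adjusted p = 0.000275, edgeR). The groups overlapped for each of these genes, and pool 3 was the lowest positive pool for *Atp6v0d2*.

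Nearly all UMIs of both receptors lay in these cells, although neither gene passed the filter on low counts. Of the 261 *Oscar* UMIs in the *Tyrobp* gate, 244 lay in *Acp5*/*Ctsk*-positive cells of the 14 pools, and of the 393 *Calcr* UMIs 375 did. Pool 1 held 118 of the *Oscar* and 202 of the *Calcr* UMIs. Without it, 131 of 143 and 178 of 191 lay in the positive cells. *Oscar* was 0.0861 ± 0.105 UMIs per 10000 in the positive cells and reached 0.00879 at most in the others (SD, n = 14), and it was at 0 in 5 positive pools. *Calcr* was 0.155 ± 0.172 in the positive cells and reached 0.00838 at most in the others, at 0 in 3 positive pools.

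Positive cells were deeper, with a median over 16 pools of 8727.5 UMIs per cell against 4961.5, which a gate on UMI number favours. Granulocyte markers had a median sum of 0.583 UMIs per 10000 in them (0.113 to 8.87) and 214.0 in the others (4.55 to 700.3). Without cells that carried granulocyte markers *Nfatc1* and *Atp6v0d2* (log2 1.36) stayed higher, as they did without cells that carried collagen. In cells thinned to 2000 UMIs only *Nfatc1* (log2 1.75) and *Atp6v0d2* (log2 1.32) had enough counts for a test, and both passed it. The positive cells were chosen before thinning, so thinning does not undo the choice of deeper cells.

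Other genes of the resorption apparatus rose in the same cells. Of 26 genes for acid secretion and matrix degradation, 16 were higher and the other 10 did not pass the test, with a median log2 change of 0.37 against -0.01 for all genes tested. *Mmp9*, a gelatinase secreted by osteoclasts, was 5.87 ± 5.75 UMIs per 10000 in the positive cells and 0.219 ± 0.218 in the others (log2 4.72 ± 0.51, SE, adjusted p = 3.84e-06, edgeR, higher in 14 of 14 pools). *Slc9b2*, a sodium/proton exchanger of osteoclasts, rose by 4.01 ± 0.26 on the log2 scale (adjusted p = 8.09e-10, edgeR). *Car2*, the carbonic anhydrase that supplies protons, rose by 1.36 ± 0.33 and *Slc4a2*, the chloride/bicarbonate exchanger, by 0.88 ± 0.13.

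Of 24 upstream signalling genes tested, 5 were higher, 1 was lower and 18 did not pass the test, with a median of 0.00 on the log2 scale. *Ppargc1b*, a coactivator of mitochondrial biogenesis, rose by 2.47 ± 0.26, *Src*, the kinase needed for the ruffled border, by 1.24 ± 0.11, *Fosl2* by 0.67 ± 0.11 and *Tnfrsf11a*, the receptor for RANKL, by 0.55 ± 0.12 (log2, SE). Of 14 further genes for fusion and adhesion 2 were higher, *Myo10* (0.52 ± 0.10) and the tetraspanin *Cd9* (0.19 ± 0.05). Of 10 negative regulators 2 were lower, *Id2* (-0.43 ± 0.10) and *Irf8* (-0.24 ± 0.07). Of 5 markers of monocyte precursors 4 were lower, among them *Ly6c2* (-4.99 ± 0.29) and *Plac8* (-3.04 ± 0.42).

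**Figure D3:**
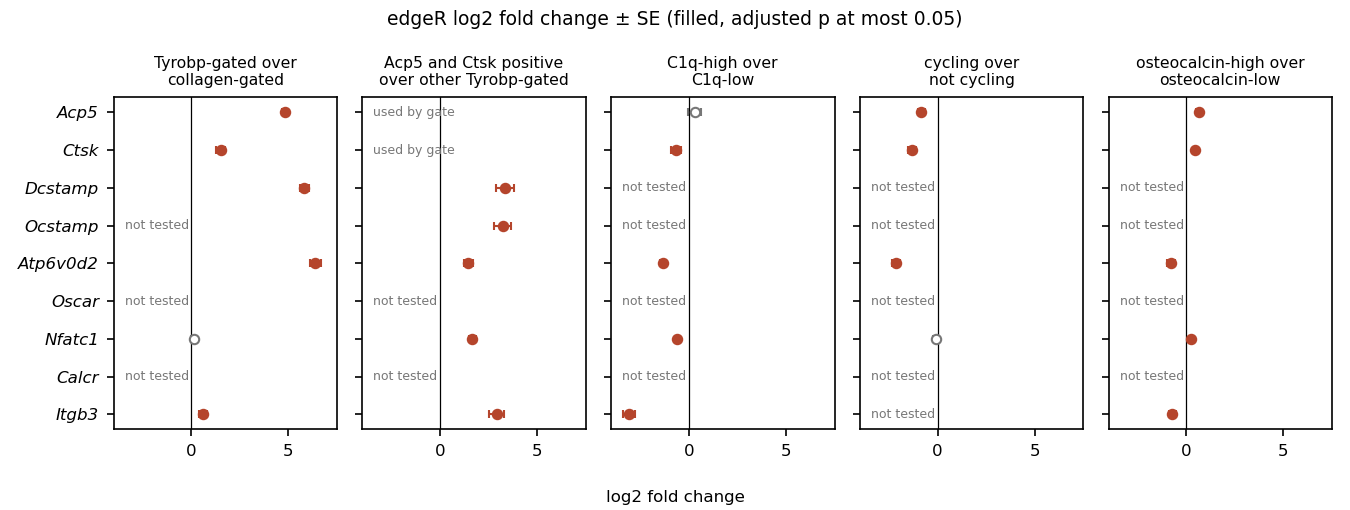
Log2 fold change of each of the 9 genes with its SE (edgeR, pools as blocks) in the 5 comparisons of cell gates. Filled points have an adjusted p of at most 0.05, and genes left out by the filter on low counts or used by the gate are named as such. The 5 members fitted in *Acp5*/*Ctsk*-positive cells lie between 1.45 and 3.35, and *Itgb3* lies at -3.07 in C1q-high cells. Of these, *Dcstamp*, *Ocstamp* and *Itgb3* passed the filter through 1 gate only, as did *Dcstamp* in the *Tyrobp* gate, and are a description.

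Macrophages rich in complement C1q, a product of resident-type macrophages, carried less *Atp6v0d2* and *Nfatc1* than C1q-poor myeloid cells, and less *Ctsk* by a less stable call, while *Acp5* had no call and *Itgb3* had lower values on few counts. The comparison took 8049 *Tyrobp*-gated cells with at least 20 UMIs of *C1qa*, *C1qb* and *C1qc* per 10000 and 4913 with fewer than 5, in 16 pools. Here 66.7% of 9658 genes passed the test, 29.5% higher and 37.2% lower, and 4 of the 5 members tested were lower. *Itgb3* was at most 0.0402 UMIs per 10000 (median 0.0163) in C1q-high and at least 0.0458 (median 0.116) in C1q-low cells, so that the groups did not overlap (fitted log2 difference -3.07 ± 0.31, SE). It had 86 UMIs in C1q-high and 714 in C1q-low cells and passed the filter through the C1q-low cells alone. Its gap and its place among the 4 members called are therefore a description. How many of all genes had such a gap was not counted. *Atp6v0d2* was lower in 16 of 16 pools (log2 -1.35 ± 0.14, SE, adjusted p = 5.25e-08, edgeR) and *Nfatc1* in 14 of 16 (log2 -0.60 ± 0.13, SE, adjusted p = 0.000363, edgeR), with overlapping ranges. *Ctsk* was lower in 12 of 16 pools (log2 -0.65 ± 0.25, SE, adjusted p = 0.0264, edgeR). *Ctsk* lost this call without any of pools 1, 4, 8, 10, 12 and 13, the adjusted p then lying between 0.0529 and 0.085, and also without the block for pools (0.104) and with no upper limit on genes per cell (0.0667).

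*Acp5* had no call in this comparison. It was 2.80 to 7.10 UMIs per 10000 (median 3.95) in C1q-high and 0.599 to 20.7 (median 3.61) in C1q-low cells, higher in 9 of 16 pools (log2 0.31 ± 0.34, SE, adjusted p = 0.438, edgeR). The share of cells with *Acp5* was nonetheless 60.4% ± 7.56 in C1q-high and 32.8% ± 13.5 in C1q-low cells (SD, n = 16), and 43.1% and 19.5% of cells thinned to 2000 UMIs, so that more C1q-high cells carried it while the levels overlapped. This difference in shares was not tested. The direction of the level turned to -0.41 without the pool block, to -0.44 with at least 5 UMIs of *Tyrobp* and to -0.10 without cells that carried collagen. C1q-low cells had a median sum of granulocyte markers of 517.6 UMIs per 10000 against 1.16, and of mesenchymal markers of 196.9 against 36.2. Without cells that carried granulocyte markers the log2 changes were -0.90 for *Ctsk*, -1.61 for *Atp6v0d2*, -0.74 for *Nfatc1* and 0.04 for *Acp5*. *Itgb3* had too few counts for a test without those cells, without cells that carried collagen and in thinned cells, so its difference was not tested there.

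The lists of osteoclast genes were split between C1q-high cells and the C1q-low cells, which were rich in granulocyte markers. Here and in the other comparisons within the *Tyrobp* gate, the lists were read only with granulocyte-marked cells included. The part of those cells in the list differences was not tested. Of 25 acid secretion and resorption genes 15 were higher and 4 lower (median log2 0.24 against -0.07 for all genes), and the lower ones were led by *Mmp9* (-3.60 ± 0.33), *Car2* (-2.65 ± 0.26) and *Slc9b2* (-1.85 ± 0.34), while the lysosomal protease *Ctsb* was higher (1.59 ± 0.12). Of 23 signalling genes 19 were higher, among them the M-CSF receptor *Csf1r* (2.41 ± 0.11), *Trem2* (1.75 ± 0.12) and *Tnfrsf11a* (1.58 ± 0.12). Of 10 negative regulators 8 were higher, led by *Id2* (1.68 ± 0.08). Of 6 monocyte markers 5 were lower, such as *Ly6c2* (-6.03 ± 0.27), and the chemokine receptor *Cx3cr1* was higher (2.87 ± 0.28).

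Dividing myeloid cells carried fewer resorption transcripts. In 1873 cycling *Tyrobp*-gated cells, with at least 5 UMIs of 8 proliferation genes per 10000, against 9787 with 0, the test called 53.2% of 9092 genes, 26.7% higher and 26.5% lower, and 3 of the 4 members tested were lower. *Atp6v0d2* was between 0.0459 and 1.53 UMIs per 10000 (median 0.370) in cycling and between 1.03 and 4.24 (median 1.81) in the other cells, lower in 16 of 16 pools (log2 -2.15 ± 0.22, SE, adjusted p = 2.20e-08, edgeR). *Ctsk* (log2 -1.31 ± 0.22, adjusted p = 2.58e-05) and *Acp5* (log2 -0.84 ± 0.17, adjusted p = 0.00029, both edgeR) were each lower in 14 of 16 pools. For *Atp6v0d2* 15 of 16 cycling pools were under every non-cycling pool, while *Ctsk* and *Acp5* overlapped. The share of all genes with such a gap was not counted.

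*Nfatc1* had no call in cycling cells (median 0.351 against 0.394 UMIs per 10000, log2 -0.06 ± 0.15, SE, adjusted p = 0.758, edgeR), and its sign was positive in the other run (0.05), without pool 1 (0.05) and without cells that carried granulocyte markers (0.12). Granulocyte markers summed to a median of 684.6 UMIs per 10000 in cycling and 152.4 in the other cells. Without cells that carried them *Atp6v0d2* (-1.89), *Ctsk* (-0.97) and *Acp5* (-0.52) stayed lower. Of 24 acid secretion and resorption genes 21 were lower and 3 did not pass the test, among the lower ones *Mmp9* (-1.36 ± 0.34) and the proton pump subunit *Tcirg1* (-1.14 ± 0.09). Of 23 signalling genes 18 were lower and 5 did not pass the test, and of 6 monocyte markers 4 were higher, led by *Plac8* (2.66 ± 0.25).

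Among mesenchymal cells, *Itgb3* was lower where osteocalcin, the product of mature osteoblasts, was high, and *Atp6v0d2* had lower values on few counts. The comparison took 8982 collagen-gated cells with at least 100 UMIs of *Bglap*, *Bglap2* and *Bglap3* per 10000 and 18948 with fewer than 20, in 16 pools. The test called 68.3% of 12255 genes, 35.3% higher and 33.1% lower. *Itgb3* was 0.00489 to 0.0508 UMIs per 10000 (median 0.0272) in osteocalcin-high and 0.0419 to 0.0899 (median 0.0512) in osteocalcin-low cells, lower in 16 of 16 pools (log2 -0.71 ± 0.18, SE, adjusted p = 0.00153, edgeR). *Atp6v0d2* was lower in 15 of 16 pools (log2 -0.78 ± 0.23, SE, adjusted p = 0.00479, edgeR) at levels of at most 0.0274 in the osteocalcin-high cells. It had only 128 UMIs there, a median of 6 per pool, against 548 and a median of 30 in osteocalcin-low cells. The *Atp6v0d2* call ended without the block for pools (adjusted p = 0.0533, edgeR). Neither gene had enough counts for a test in thinned cells, nor had *Atp6v0d2* at 100 or more collagen UMIs per 10000, where *Itgb3* stayed lower (log2 -0.86). Of the 6 monocyte markers 3 could be tested here, and 3 of 3 were lower as well (median log2 -1.34). The *Atp6v0d2* level of all collagen-gated cells, at 0.889% of the *Tyrobp*-gated level, also lay within the range of the myeloid marker medians given above. The part of myeloid RNA in these differences was not tested.

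*Ctsk*, *Acp5* and *Nfatc1* were called higher in osteocalcin-high cells by the TMM scaling, which shifted all genes by 0.38 on the log2 scale here. The calls held with the size factors of DESeq2 and in DESeq2 itself, and all 3 ended with scaling to total UMIs. The *Acp5* call also ended without the block for pools (adjusted p = 0.0542), in thinned cells (0.176) and at 100 or more collagen UMIs per 10000 (0.0715, all edgeR). The *Nfatc1* call ended in thinned cells (adjusted p = 0.261), at that stricter collagen gate (log2 -0.11, adjusted p = 0.364, both edgeR) and without any of 8 of the 16 pools. With it *Ctsk* differed by 0.44 ± 0.05 (SE, adjusted p = 1.44e-07, edgeR), *Acp5* by 0.63 ± 0.15 (adjusted p = 0.000868, edgeR) and *Nfatc1* by 0.22 ± 0.09 (adjusted p = 0.0328, edgeR). Scaled to total UMIs the values were 0.06 for *Ctsk* (adjusted p = 0.241, edgeR), 0.26 for *Acp5* (adjusted p = 0.102, edgeR) and -0.15 for *Nfatc1* (adjusted p = 0.101, edgeR), and only *Itgb3* (-1.09) and *Atp6v0d2* (-1.15) were called. As a share of UMIs *Ctsk* was 1.27 in the osteocalcin-high and 1.21 in the osteocalcin-low cells per 10000, higher in 8 of 16 pools.

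Individual cells that carried *Oscar* or *Calcr* usually carried *Acp5* and *Ctsk* too. Co-detection was read in 13708 *Tyrobp*-gated cells thinned to 2000 UMIs, as a description without a test. Of 35 cells with *Oscar*, 34 (97.1%) had *Ctsk*, against 21.6% of the cells without *Oscar*, and 32 (91.4%) had *Acp5*, against 33.7%. Of 55 cells with *Calcr*, 52 (94.5%) had *Acp5* and 52 had *Ctsk*. These receptor-bearing cells were few and came from 7 pools for *Oscar* with *Ctsk* and 9 pools for *Calcr* with *Ctsk*. Pool 1 alone gave 19 of the 35 and 29 of the 55, and 47.5% of all its cells had *Ctsk* at this depth. Without pool 1, 15 of 16 *Oscar* cells and 23 of 26 *Calcr* cells had *Ctsk*. *Dcstamp* and *Ocstamp* were less tightly bound to the pair: 84 (66.1%) of 127 *Dcstamp* cells and 53 (67.9%) of 78 *Ocstamp* cells had *Acp5*. *Ctsk* was seen in 63.8% of the *Dcstamp* and 48.7% of the *Ocstamp* cells. Of 132 *Itgb3* cells, 49.2% had *Acp5* and 47.7% had *Ctsk*, and without pool 1 the shares were 36.3% and 34.3%. Both fusion genes were seen together in 17 cells of 7 pools.

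Among the 3 common genes, *Ctsk* and *Atp6v0d2* had the highest odds ratio. Of cells with *Ctsk*, 36.1% had *Atp6v0d2*, against 13.3% of those without, a median odds ratio of 3.81 over pools (2.17 to 12.2, above 1 in 16 of 16). *Acp5* and *Ctsk* had a median odds ratio of 1.30 (0.821 to 4.10, above 1 in 15 of 16 pools) and *Acp5* and *Atp6v0d2* 1.29 (above 1 in 13 of 16). The genes of a cell share its depth, which thinning evens out, and its cell type, which it does not.

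**Figure D4:**
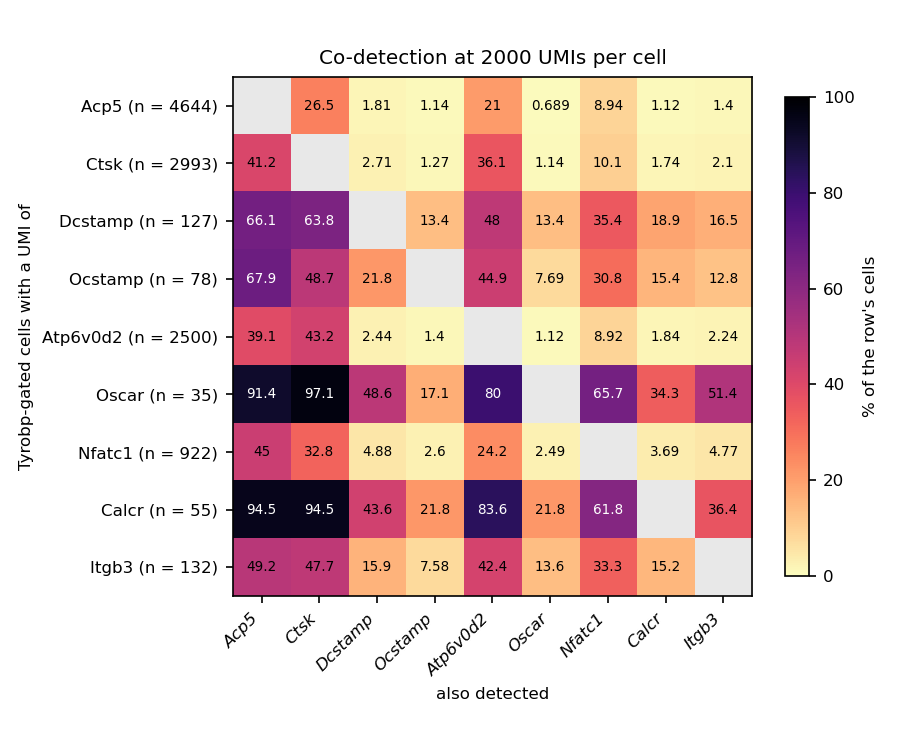
Co-detection of the 9 genes in *Tyrobp*-gated cells thinned to 2000 UMIs. Each row takes the cells with a UMI of the gene named at the left (number of cells in brackets), and each square gives the percent of them that also had a UMI of the gene named below. The rows of *Oscar* and *Calcr* reach 91.4% to 97.1% in the *Acp5* and *Ctsk* columns, while the row of *Acp5* has 26.5% for *Ctsk* and 21.0% for *Atp6v0d2*.

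Cells with most of the 9 genes at once were very few, and pool 1 held the most. At 2000 UMIs 43.3% of the cells had none of the genes, 36.9% had 1, 15.1% had 2 and 91 cells (0.664%) had 5 or more. Without thinning, 130 of 15276 *Tyrobp*-gated cells (0.851%) had 6 or more, a limit set after the values were seen, and 22 had all 9. Pool 1 held 63 of the 130 (48.5%), pool 2 held 25, pool 13 held 11 and pool 9 held 7. Pools 11 and 17 held 0 of them, and the other 10 pools 1 to 4 each. As a share of a pool's *Tyrobp*-gated cells they were 4.27% in pool 1, 1.31% in pool 13, 1.15% in pool 2 and 1.03% in pool 4.

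These 130 cells had a median of 10314.5 UMIs and 3084 genes, against 5177 UMIs and 1936 genes in cells with 0 to 4 members. They held 1.52% of the UMIs of the gate and 92.7% of its *Oscar*, 91.9% of its *Calcr*, 59.6% of its *Dcstamp*, 58.8% of its *Ocstamp* and 55.5% of its *Itgb3* UMIs. Choosing cells by 6 or more of these very genes sets such shares in large part, most of all for genes that are rare, so they are a description only. The share was 10.6% for *Atp6v0d2*, 24.2% for *Ctsk* and 38.8% for *Acp5*. *Mmp9*, which the choice did not use, was 46.5 UMIs per 10000 in them and 0.268 in cells with 0 to 4 members. The myeloid receptor *Csf1r* was 7.33 against 3.59, while the macrophage genes *C1qa* (1.05 against 14.4) and *Lyz2* (13.3 against 88.3) and the granulocyte gene *S100a8* (0.117 against 64.9) were lower, as was *Col1a2* (6.11 against 40.3). These values are pooled over cells and have no test.

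**Figure D5:**
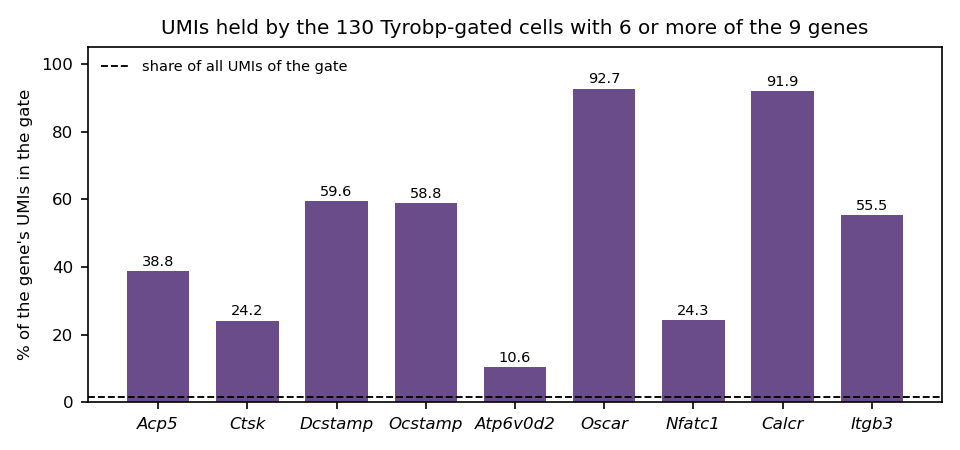
Percent of each gene's UMIs in the *Tyrobp* gate that lay in the 130 cells with 6 or more of the 9 genes detected. The dashed line is their share of all UMIs of the gate (1.52%). *Oscar* and *Calcr* exceed 90%, and *Atp6v0d2* is lowest at 10.6%.

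Over all *Tyrobp*-gated cells, the genes most like each member formed a few sets, by the mean within-pool correlation of normalized counts over 10406 genes and 16 pools (12 for *Oscar* and *Calcr*). Only genes seen in at least 2% of these cells were compared, so *Ocstamp*, *Oscar* and *Calcr* could not be named as partners. *Atp6v0d2* was most like *Lgals3* (0.42), *Gpnmb* (0.42) and *Fabp5* (0.40). *Acp5* was most like *Csf1r* (0.33), *Apoe* (0.27) and *Pla2g7* (0.26), and *Ctsk* was most like *Atp6v0d2* (0.34). *Slc9b2* or *Mmp9* was the first or second gene for *Dcstamp* (*Mmp9*, 0.27), *Ocstamp* (*Slc9b2*, 0.24), *Calcr* (*Mmp9*, 0.47), *Nfatc1* (*Slc9b2*, 0.19), *Itgb3* (*Mmp9*, 0.24) and *Oscar* (*Slc9b2*, 0.33). The points are cells of shared libraries and these weak coefficients are a description.

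The level of the members in myeloid cells was also set against the signals that mesenchymal cells of the same pool make. Over 16 pools and 27 relations, *Tnfsf11*, which encodes RANKL, was related by Pearson's r to 6 members and *Csf1*, which encodes M-CSF, to 3, and *Tnfrsf11b*, the decoy receptor for RANKL, to 0 (Benjamini-Hochberg adjusted permutation p of at most 0.05, two-sided). At an unadjusted permutation p of 0.05 the counts were 8 of 9, 5 of 9 and 1 of 9. Only the 9 members were set against the signals. How many of all genes are related to them in this way was not counted, so these counts are a description. *Oscar* and *Tnfsf11* had r = 0.76 (permutation p = 0.00063, adjusted p = 0.00932) and rho = 0.65 (permutation p = 0.00744, adjusted p = 0.067), and *Atp6v0d2* and *Csf1* had r = 0.75 (adjusted permutation p = 0.00932). Only *Ocstamp* and *Tnfsf11* passed by Spearman's rho (0.73, permutation p = 0.00173, adjusted p = 0.0467, with r = 0.66).

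Leaving out pools lowered most of these coefficients in this run. Without the 2 pools farthest from the median signal, pools 1 and 9 for *Tnfsf11*, r fell to 0.52 for *Oscar*, 0.45 for *Acp5*, 0.45 for *Ocstamp* and 0.20 for *Itgb3*. Without pools 1 and 2, r with *Csf1* was 0.62 for *Atp6v0d2*, 0.11 for *Dcstamp* and 0.03 for *Oscar*, and over all relations r was lower in 24 of 27. In the other run of the same droplets 0 of 27 relations passed by Pearson's r, the smallest adjusted permutation p being 0.0535, and 9 of 27 had an unadjusted p of at most 0.05. There the 2 pools farthest from the median *Tnfsf11* level were 3 and 7. Without them r with *Tnfsf11* was higher for 9 of 9 members, as for *Ocstamp* (0.68 to 0.86) and *Calcr* (0.55 to 0.76). For *Csf1* the pools left out in that run were again 1 and 2, and r was lower for 9 of 9 members. The 2 signals were thus read without different pools. *Tnfsf11* itself was read at only 0.011 to 0.045 UMIs per 10000 in collagen-gated cells. Pool 1 had the highest of these values in run HGYVNCCX2, and its collagen-gated cells had a median of only 1643 UMIs.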

How the data were processed

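For each run of each pool the authors aligned and counted reads with Cell Ranger 5.0.0 (GRCm38) and deposited raw UMI counts per gene and called barcode, before cells were filtered or traced to mice. Which annotation release was used is not given in the sources used here. A molecule is counted by its 3′ end, so levels carry no length term. Cells were kept if they had 400 to 6200 genes and UMI shares of no more than 10% from mitochondrial, 20% from *Rpl* and 15% from *Rps* genes. Doublets were scored in each pool against 2 simulated doublets per droplet (2000 variable genes, 30 principal components) and the highest scores removed, at 0.8% per 1000 barcodes, or 5003 droplets (5.63%).

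Counts were summed per pool and gate and tested over all genes by the quasi-likelihood test of edgeR 4.0.16 under R 4.3.3, with the pool as a block, TMM scaling, the filterByExpr limit on low counts and a Benjamini-Hochberg threshold of 0.05, in pools with at least 20 cells in both gates. SE is the absolute log2 fold change over the square root of F. Both gates come from the same droplets of a pool, and same-numbered gates deviated together in every pool (lowest correlation 0.155, against medians of -0.042 to -0.022 between pools). Relations over pools used 100000 permutations of log2(UMIs per 10000 + 0.1). The scripts were tested on simulated data with known changes. Nothing in the labels says that pools differ other than in their mice. Each pool is also its own library, so differences between mice and between libraries cannot be told apart. With the pool as a block, differences in level between pools are taken out. The edgeR p-values then measure how far the difference between gates varies from pool to pool.

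The 9 members and all gene lists were chosen with earlier results of these data known. The members are named in every comparison, and of each other list at most 4 genes, those with the largest changes past the threshold. Alternatives were another normalization, DESeq2 1.42.0, no filter, no block, the other run, doublets kept, no upper gene limit, thinned cells, stricter gates and leaving out each pool. The scaling to total UMIs, the removal of cells with granulocyte markers (at least 50 UMIs per 10000), the T-cell gate without collagen and the cells with 6 or more members were added after seeing the data.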

Additional observations from a re-analysis of the deposited data

Results flagged for a closer look

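Droplets with more than 6200 genes were left out of every comparison, and 122 of these 1515 droplets met the *Tyrobp* gate. Transcripts of 8 of the 9 genes were read in them above the limit that a count of 0 allows, which is why they are listed. *Acp5* was at 1.05 UMIs per 10000 (95% exact Poisson interval 0.974 to 1.13), against 4.82 over the kept *Tyrobp*-gated cells. *Ctsk* was at 1.58 (1.48 to 1.68), against 5.99, and *Atp6v0d2* at 0.233, against 1.85. *Nfatc1* was at 0.394, against 0.445, and *Itgb3* at 0.068, against 0.0856. *Ocstamp* was at 0.00928, *Calcr* at 0.00928 and *Oscar* at 0.00773. All 8 levels were under those of the kept cells. For *Nfatc1* (0.347 to 0.446) and *Itgb3* (0.0494 to 0.0913) the exact Poisson interval held the kept level. The difference was not tested, and the intervals cover counting error only.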

How the results depend on the processing

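The 5 comparisons were recomputed under the alternatives given above. The relations over pools were recomputed only with pseudocounts of 0.01 and 1, in the other run and with doublets kept. Of 283 fold changes of single members, 262 kept their direction and side of the threshold, and of 388 recomputed without a single pool 373 did. With no filter on low counts, 8 members passed for *Tyrobp*-gated against collagen-gated cells, 8 for C1q-high cells and 6 for cycling cells, since more members were then tested. Those newly tested had few counts, such as *Calcr* with 37 UMIs in collagen-gated and 9 in C1q-high cells. The share of all genes called with no filter is not given beside these counts, so they are a description. In cells thinned to 2000 UMIs the members past the threshold were 3 for the *Tyrobp* gate, 2 for *Acp5*/*Ctsk*-positive cells and 1 for osteocalcin-high cells, and all genes past it were 324 for *Acp5*/*Ctsk*-positive, 3408 for C1q-high, 2427 for cycling and 3994 for osteocalcin-high cells. For *Acp5*/*Ctsk*-positive cells, 906 genes passed as reported, 460 with no replicate block (pairing by pool dropped), 3012 with doublets kept, 1372 with no upper gene limit and 1645 with at least 5 *Tyrobp* UMIs. For osteocalcin-high cells, 5 members passed as reported, 3 with no replicate block, 2 scaled to total UMIs and 2, with 5455 genes, at 100 or more collagen UMIs per 10000. The block changed no other count of members by over 1.5 times. Relations past the threshold numbered 4 with a pseudocount of 0.01 and 0 in the other run, against 9.

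Directions turned as follows (log2). For the *Tyrobp* gate, *Nfatc1* was -0.058 thinned and -0.067 at the stricter collagen gate, and *Itgb3* -0.12 thinned. For C1q-high cells, *Acp5* was -0.41 without the block, -0.44 at the stricter *Tyrobp* gate and -0.10 without collagen. For cycling cells, *Nfatc1* was 0.054 without pool 1, 0.050 in the other run and 0.12 without granulocyte markers. For osteocalcin-high cells, *Nfatc1* was -0.15 scaled to total UMIs and -0.11 at the stricter collagen gate, and it lost its call without any of pools 3, 5, 6, 7, 10, 12, 14 and 18. The cause was not tested. Leaving out each pool in turn gave 5 to 6 members for the *Tyrobp* gate, 4 to 5 for *Acp5*/*Ctsk*-positive, 3 to 5 for C1q-high, 3 for cycling and 4 to 5 for osteocalcin-high cells. *Oscar* and *Calcr*, with 261 and 393 UMIs in all *Tyrobp*-gated cells, are limited by counts.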
